A study of Mus musculus with 12 samples.

Results

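Fat cells store triglyceride and release hormones, and 33 genes that serve these tasks were followed in ear skin injected with IL-17A, IL-36γ or both. The genes were chosen by name, and each symbol was matched through the gene symbols of the authors' comparison tables to 1 Ensembl row of the count table, where all 33 were found among 50684 genes. RNA-Seq was performed on 12 female C57BL/6 mice of 8 weeks with 3 mice in each of 4 groups, picked from 5 mice per group. The PBS group received PBS alone, the IL-17A group 1 µg of IL-17A, the IL-36γ group 1 µg of IL-36γ and the IL-17A + IL-36γ group 1 µg of each cytokine. All mice, the controls included, were injected into the skin of the ear pinna with a volume of 5 µL. The ears were taken on day 4, by the study's account after 4 days of consecutive treatment. IL-17A is a cytokine of T helper cells and IL-36γ one of the epidermis, and the study combined them as a model of psoriasis. RNA was isolated from homogenised ear tissue, which holds epidermis, dermis, sebaceous glands, cartilage, muscle and fat. A lower value can mean, among other things, fewer fat cells, less RNA per fat cell or a larger share of RNA from other cells. These cannot be told apart here.

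A fat cell keeps its triglyceride in a lipid droplet, whose coat of perilipins controls the access of lipases. Insulin favours storage through glucose uptake and triglyceride synthesis, adrenergic signals favour lipolysis, and the nuclear receptor PPARγ together with C/EBPα keeps the whole programme switched on. In skin, fat cells lie in a layer under the dermis and around hair follicles, and sebaceous gland cells share with them several enzymes of triglyceride synthesis. Leptin, adiponectin, resistin and adipsin are the classical secreted products of these cells.

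Library totals ranged from 25293468 to 34759293 counts. Levels are given as CPM, the count of a gene as a share of its TMM-scaled library, and each group comprises 3 mice. The quasi-likelihood test of edgeR was run on 19408 genes in 1 fit of all 12 libraries, and p-values were adjusted over all of these genes by Benjamini-Hochberg. Calls of lowered or raised genes required an adjusted p-value below 0.05 together with a log2 fold change past -1 or 1, with its standard error given as SE. A gene is said to have fallen or risen where the adjusted p-value alone was below 0.05. The p-values weigh a difference between groups against the spread between these mice, as estimated in the fit of all 12 libraries. Of the 33 genes, 32 passed the filter on low counts. The exception was Ucp1, the uncoupling protein of brown fat, which held between 0 and 11 counts per library. PBS replicate 1 stood apart in the summed level of 10 skeletal muscle genes, with 444.5 CPM against 3446 and 3001 CPM in the other PBS mice.

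The defining markers of fat cells were present. Each of 10 markers (Adipoq, Plin1, Plin4, Cidec, Fabp4, Lep, Retn, Cfd, Pparg and Lipe) had at least 26 counts in every library, and their summed level in PBS ears was 366.9, 480.6 and 477.6 CPM. Levels of different genes were compared per kilobase of exon. In PBS ears Mgst1, a glutathione transferase of the endoplasmic reticulum, had the highest level with 91.7 CPM per kb, followed by Dgat2 with 87.6 and Car3 with 87.4 CPM per kb. These 3 levels differed by less than the spread of Mgst1 between the PBS mice. The adipokines covered a range from 34.1 CPM per kb for Cfd over 21.5 for Adipoq and 5.53 for Retn to 3.16 for Lep. The tested genes below 1 CPM per kb were Acvr1c at 0.882, Adrb3 at 0.512 and Aqp7 at 0.464. Of the 10 genes with the highest level per kb in PBS, 3 were called lowered by both cytokines (Car3, Plin4 and Fabp4).

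The first question was how the genes of the fat cell responded to the joint injection. Against PBS, 13 of the 32 genes tested were called lowered by IL-17A + IL-36γ and 0 were called raised, where 5.82% of all genes tested were called lowered and 7.32% raised. By the adjusted p-value alone, 17 genes fell (20.5% of all genes) and 0 rose (23.7% of all genes). All 3 libraries of the joint injection lay below all 3 PBS libraries for 20 genes (25.6% of all genes), and above them for 1 gene, Acsl1 (27% of all genes). The median log2 fold change of the 32 genes was -0.95, whereas that of all genes was -0.025. The 13 called genes comprised the hormones Lep, Retn and Adipoq, the droplet coats Plin1 and Plin4, the receptor Acvr1c, the glycerol channel Aqp7, the fatty acid carrier Fabp4, Gpd1 and Thrsp of triglyceride synthesis, Slc2a4 and Irs1 of the insulin response, and Car3. Their level after both cytokines was between 19.6% and 50.00% of that after PBS. The count rested in part on 1 mouse: without IL-17A + IL-36γ replicate 2, which was the lowest of its group for 22 of the 32 genes, 7 genes were called (Plin1, Plin4, Lep, Retn, Acvr1c, Irs1 and Car3) where 4.95% of all genes were called lowered.

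**Figure D1:**
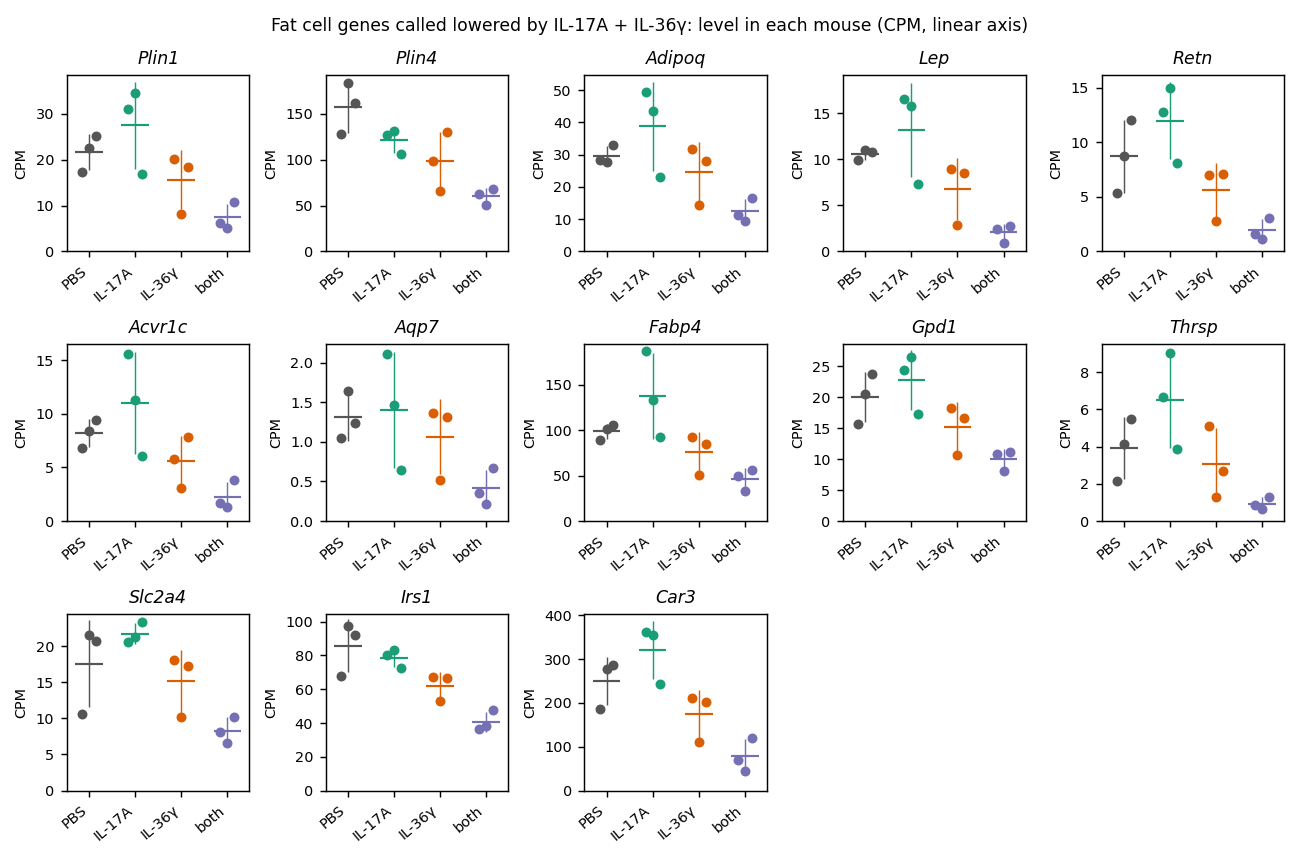
Level of the 13 genes called lowered by IL-17A + IL-36γ in each mouse, in CPM on a linear axis that starts at 0, for PBS, IL-17A, IL-36γ and the joint injection ("both"). Points are mice, horizontal bars the mean and vertical bars the SD of 3 mice. For all 13 genes the 3 mice of the joint injection lie below the 3 PBS mice, and for Lep the joint group spans 0.951 to 2.78 CPM against 9.88 to 11 CPM after PBS.

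Sequences upstream of the start are shown for the 4 genes of lowest adjusted p-value among the called ones with a RefSeq sequence, since these genes fell together and their control regions can be set side by side. Each line gives the 250 bases before the RefSeq start in GRCm38.p6, 5′ to 3′ on the strand of the gene. Capitals mark matches to TTGCNNAA, the core bound by C/EBP factors, searched on both strands.
Irs1 (chr1:82291440-82291689, minus strand): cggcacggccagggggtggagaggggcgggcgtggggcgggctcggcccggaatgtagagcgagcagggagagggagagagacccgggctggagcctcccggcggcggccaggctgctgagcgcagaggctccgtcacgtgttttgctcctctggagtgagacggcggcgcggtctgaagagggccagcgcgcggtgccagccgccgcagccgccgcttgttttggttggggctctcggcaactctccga
Plin4 (chr17:56109783-56110032, minus strand): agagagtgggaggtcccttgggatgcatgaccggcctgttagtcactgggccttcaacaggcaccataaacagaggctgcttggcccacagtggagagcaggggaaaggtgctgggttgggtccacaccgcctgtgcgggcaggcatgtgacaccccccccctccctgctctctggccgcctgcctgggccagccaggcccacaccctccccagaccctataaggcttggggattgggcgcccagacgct
Lep (chr6:29059971-29060220, plus strand): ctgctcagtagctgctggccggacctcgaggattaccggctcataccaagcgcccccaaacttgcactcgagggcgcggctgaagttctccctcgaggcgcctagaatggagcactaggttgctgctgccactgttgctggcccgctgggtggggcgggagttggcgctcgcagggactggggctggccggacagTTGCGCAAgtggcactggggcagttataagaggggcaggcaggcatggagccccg
Retn (chr8:3655520-3655769, plus strand): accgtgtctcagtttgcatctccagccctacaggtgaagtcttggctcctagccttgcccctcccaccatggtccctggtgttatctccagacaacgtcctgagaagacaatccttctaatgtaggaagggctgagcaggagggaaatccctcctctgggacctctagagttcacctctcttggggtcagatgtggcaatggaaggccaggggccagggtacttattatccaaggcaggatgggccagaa

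Of these 4 windows, the one of Lep holds the C/EBP core, 55 bases before the start and readable on both strands. The upstream sequence was found for 24 of the 33 genes and for 9 of the 13 called ones. The core occurred in 5 of the 24 and in 2 of the 9, the other being Plin1, which holds it at 187 and at 58 bases before the start, while 9.56% of 32851 mouse promoters of this length hold it. The nuclear receptor half-site AGGTCA occurred in 6 of the 24 genes and in 1 of the 9 (Aqp7), against 14% of all promoters, and its direct repeat with a spacer of 1 base in 0 of the 24, against 0.338%. A gene was counted where any of its RefSeq starts held the match, whereas the shares are per promoter, with 32851 promoters for 27025 genes. Genes with several starts have more chances of a match, so counts of genes and these shares are not directly comparable. A match is a description of the letters and not of a bound site.

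The hormones had the lowest median log2 fold change of the 8 roles, -2.05. Lep (ENSMUSG00000059201, chr6:29060220-29073877, plus strand) encodes leptin, the satiety hormone that reports fat mass. For Lep, replicates 1, 2 and 3 held 9.88, 11 and 10.9 CPM after PBS, 16.5, 15.8 and 7.28 after IL-17A, 8.92, 2.86 and 8.47 after IL-36γ and 2.46, 0.951 and 2.78 after both. The 3 mice of the joint injection lay below all other mice, and the PBS mice were nearly equal. The joint injection left 19.6% of the PBS level, a log2 fold change of -2.35 (SE 0.51, adjusted p = 0.00438).

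Retn (ENSMUSG00000012705, chr8:3655770-3660110, plus strand) encodes resistin, a hormone of white fat in mice. For Retn, replicates 1, 2 and 3 held 5.37, 8.78 and 12 CPM after PBS, 12.8, 15 and 8.09 after IL-17A, 7.02, 2.77 and 7.06 after IL-36γ and 1.56, 1.17 and 3.11 after both. The joint group was lowest and did not overlap with PBS, and IL-36γ replicate 2 lay inside the range of the joint group. Against PBS the joint injection gave a log2 fold change of -2.15 (SE 0.48, adjusted p = 0.00535). Adipoq (ENSMUSG00000022878, chr16:23146536-23158028, plus strand) encodes adiponectin, which sensitises tissues to insulin. For Adipoq, replicates 1, 2 and 3 held 28.3, 27.8 and 33 CPM after PBS, 49.5, 43.6 and 23.2 after IL-17A, 31.8, 14.3 and 28 after IL-36γ and 11.4, 9.33 and 16.7 after both. Its joint group again lay below PBS, with a log2 fold change of -1.25 (SE 0.36, adjusted p = 0.0198), an adjusted p-value that no longer passed without PBS replicate 3 and without either replicate 1 or 2 of the joint injection. Cfd encodes complement factor D, also known as adipsin. For Cfd, replicates 1, 2 and 3 held 13.4, 41.4 and 39.6 CPM after PBS, 70.1, 50.3 and 26.7 after IL-17A, 30.3, 13.2 and 36.6 after IL-36γ and 5.93, 3.04 and 15.1 after both. PBS replicate 1 was lower than joint replicate 3, so that the groups overlapped, and the log2 fold change of -1.96 (SE 0.71, adjusted p = 0.0527) did not pass.

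Of the 4 lipid droplet genes, 2 were called lowered and 3 fell. Plin1 (ENSMUSG00000030546, chr7:79720218-79732903, minus strand) encodes the perilipin that holds back lipolysis on the large droplet of fat cells. For Plin1, replicates 1, 2 and 3 held 17.4, 22.6 and 25.2 CPM after PBS, 31.1, 34.7 and 16.8 after IL-17A, 20.3, 8.28 and 18.5 after IL-36γ and 6.28, 5.23 and 10.9 after both. The joint group lay wholly below PBS, with a log2 fold change of -1.54 (SE 0.41, adjusted p = 0.0139), and the adjusted p-value no longer passed without IL-17A + IL-36γ replicate 1. Plin4 (ENSMUSG00000002831, chr17:56100591-56109803, minus strand) encodes a perilipin of small, newly formed droplets. For Plin4, replicates 1, 2 and 3 held 127, 183 and 162 CPM after PBS, 126, 131 and 106 after IL-17A, 98.5, 66.3 and 129.6 after IL-36γ and 62.7, 51 and 67.9 after both. The joint group lay below all PBS and all IL-17A mice, with a log2 fold change of -1.38 (SE 0.23, adjusted p = 0.000867). Cidea, a droplet protein of brown fat and sebaceous glands, fell to 46.7 ± 4.5 CPM from 87.5 ± 30.7 CPM after PBS (SD, n = 3), a log2 fold change of -0.91 (SE 0.22, adjusted p = 0.00669). Cidec, which fuses droplets, was at 6.21 ± 2.94 CPM against 16.9 ± 6.36 CPM, and its log2 value of -1.44 did not pass (SE 0.58, adjusted p = 0.0733), although its joint mice all lay below the PBS mice.

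Both regulators stayed within 1 log2 unit of PBS. Pparg, the master regulator of fat cell formation, had a small spread between mice. For Pparg, replicates 1, 2 and 3 held 36.1, 30.6 and 34.9 CPM after PBS, 33.8, 35.2 and 24.4 after IL-17A, 24.2, 22.5 and 23.6 after IL-36γ and 22.4, 23.9 and 22.9 after both. The joint mice and the IL-36γ mice lay close together and below all PBS mice, and the fall after both cytokines was a log2 fold change of -0.56 (SE 0.12, adjusted p = 0.00227). Cebpa, its partner, was at 175 ± 46.8 CPM in the PBS group and 189 ± 2.2 CPM after both injections (SD, n = 3), with a 95% confidence interval of the log2 fold change from -0.26 to 0.48. The groups overlapped, and the difference did not pass (adjusted p = 0.624).

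Of the 6 genes of lipolysis, 2 were called lowered (Acvr1c and Aqp7), and Pnpla3 fell. Lipe, the hormone-sensitive lipase, had a log2 fold change of -0.12 (95% confidence interval -0.57 to 0.34), and Pnpla2, the adipose triglyceride lipase, one of -0.20 (-0.51 to 0.11). Neither passed (adjusted p = 0.674 and 0.267), and both intervals stay above the fold threshold of -1. Pnpla3, an acylhydrolase of the droplet, fell by a moderate amount, with a log2 fold change of -0.58 (SE 0.11, adjusted p = 0.00131), and all mice of the joint injection were below those of PBS. Adrb3, the beta-3 adrenergic receptor, was low in all groups, at 1.73 ± 0.205 CPM after PBS and 1.32 ± 0.26 CPM after both, and its log2 value of -0.39 did not pass (adjusted p = 0.21).

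Acvr1c (ENSMUSG00000026834, chr2:58267453-58357895, minus strand) encodes ALK7, an activin receptor of mature fat cells that holds lipolysis down. For Acvr1c, replicates 1, 2 and 3 held 6.81, 8.38 and 9.4 CPM after PBS, 15.6, 11.3 and 6.11 after IL-17A, 5.82, 3.11 and 7.82 after IL-36γ and 1.64, 1.32 and 3.81 after both. The joint mice lay below the PBS mice, with a log2 fold change of -1.84 (SE 0.48, adjusted p = 0.0105). Aqp7 (ENSMUSG00000028427, chr4:41033074-41048139, minus strand) is the channel through which glycerol leaves the fat cell. For Aqp7, replicates 1, 2 and 3 held 1.05, 1.64 and 1.24 CPM after PBS, 2.1, 1.46 and 0.644 after IL-17A, 1.36, 0.518 and 1.31 after IL-36γ and 0.351, 0.219 and 0.669 after both. The joint group was lowest at 6 to 20 counts per library, with a log2 fold change of -1.64 (SE 0.51, adjusted p = 0.0201), and its adjusted p-value no longer passed without PBS replicate 2 and without replicate 1 or 2 of the joint injection.

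Of the 4 genes of fatty acid uptake, 1 was called. Fabp4 (ENSMUSG00000062515, chr3:10204088-10208576, minus strand) encodes the fatty acid binding protein of fat cells and macrophages. For Fabp4, replicates 1, 2 and 3 held 89.4, 101 and 106 CPM after PBS, 187, 133 and 92.4 after IL-17A, 92.5, 50.9 and 85.1 after IL-36γ and 49.8, 32.7 and 55.8 after both. The joint mice lay below the PBS mice while IL-17A replicate 1 was highest, and the joint injection gave a log2 fold change of -1.10 (SE 0.31, adjusted p = 0.0163). Its adjusted p-value no longer passed without PBS replicate 3. Lpl, the lipoprotein lipase, was at 144 ± 11.8 CPM in the PBS group and 140.0 ± 15.2 CPM after both, with a log2 difference of -0.042 and a 95% confidence interval from -0.37 to 0.29. Cd36, the fatty acid translocase, had a log2 value of -0.23 (-0.59 to 0.13), and neither passed (adjusted p = 0.84 and 0.27). Acsl1, which activates long-chain fatty acids, pointed the other way. For Acsl1, replicates 1, 2 and 3 held 288, 276 and 288 CPM after PBS, 239, 287 and 293 after IL-17A, 346, 295 and 303 after IL-36γ and 345, 323 and 327 after both. All joint mice were above all PBS mice, but the log2 fold change of 0.22 (SE 0.087) had an adjusted p of 0.0518 and did not pass.

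Triglyceride synthesis was split as well, with 2 of 7 genes called and 3 that fell. Thrsp (ENSMUSG00000035686, chr7:97412938-97417730, minus strand) encodes Spot14, a nuclear protein that follows lipogenesis. For Thrsp, replicates 1, 2 and 3 held 2.16, 4.13 and 5.46 CPM after PBS, 6.65, 9.01 and 3.86 after IL-17A, 5.12, 1.31 and 2.69 after IL-36γ and 0.858, 0.622 and 1.3 after both. The joint mice lay below the PBS mice, with a log2 fold change of -2.06 (SE 0.56, adjusted p = 0.0129), an adjusted p-value that no longer passed without IL-17A + IL-36γ replicate 2. Gpd1 (ENSMUSG00000023019, chr15:99717515-99725005, plus strand), the dehydrogenase that supplies glycerol phosphate, was at 15.7, 20.6 and 23.7 CPM after PBS and at 10.9, 8.01 and 11.1 CPM after both. The groups did not overlap, and the value lay at the fold threshold, with a log2 fold change of -1.0 (SE 0.23, adjusted p = 0.00521). Lpin1, the phosphatidate phosphatase lipin, fell with a log2 fold change of -0.67 (SE 0.15, adjusted p = 0.00392). Pck1, the carboxykinase of glyceroneogenesis, held 4.32, 13.2 and 8.03 CPM after PBS and 1.09, 1.02 and 4.05 CPM after both. Its mice spread widely, and a log2 value of -2.03 (SE 0.77) did not pass (adjusted p = 0.0578). The acyltransferases Agpat2, Dgat1 and Dgat2 had log2 values of 0.058, 0.024 and -0.23, and none of the 3 passed (adjusted p from 0.121 to 0.884).

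Both genes of the insulin response were called. Irs1 (ENSMUSG00000055980, chr1:82233101-82291416, minus strand), the docking protein of the insulin receptor, had the lowest adjusted p-value of the 32 genes. For Irs1, replicates 1, 2 and 3 held 67.8, 97.4 and 91.9 CPM after PBS, 80.6, 83.2 and 72.5 after IL-17A, 67.1, 52.8 and 66.5 after IL-36γ and 36.4, 38 and 47.7 after both. The joint mice lay below every other mouse, with a log2 fold change of -1.07 (SE 0.15, adjusted p = 0.000158). Slc2a4 (ENSMUSG00000018566, chr11:69942539-69948188, minus strand) encodes GLUT4, the glucose transporter that insulin moves to the surface of fat and muscle cells. For Slc2a4, replicates 1, 2 and 3 held 10.6, 21.5 and 20.7 CPM after PBS, 20.6, 21.3 and 23.3 after IL-17A, 18.1, 10.1 and 17.3 after IL-36γ and 8.08, 6.55 and 10.2 after both. PBS replicate 1 was close to the joint mice, while the groups did not overlap, with a log2 fold change of -1.08 (SE 0.29, adjusted p = 0.0117).

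Car3 (ENSMUSG00000027559, chr3:14863512-14872523, plus strand) encodes carbonic anhydrase 3, an abundant protein of fat and of slow muscle. For Car3, replicates 1, 2 and 3 held 187, 277 and 287 CPM after PBS, 363, 354 and 244 after IL-17A, 210.5, 109.9 and 202 after IL-36γ and 70.7, 45.6 and 121 after both. The joint group lay below PBS, with a log2 fold change of -1.66 (SE 0.39, adjusted p = 0.00742). Mgst1 was at 185 ± 32.9 CPM in the PBS group and 172 ± 21.2 CPM after both, with a 95% confidence interval of the log2 fold change from -0.38 to 0.18, and did not pass (adjusted p = 0.552). Adig, which encodes the small membrane protein adipogenin, had a log2 value of -0.52 (SE 0.20, adjusted p = 0.0532) and did not pass either. Ucp1 was at 0.305, 0.113 and 0.0606 CPM after PBS and 0.273, 0.0366 and 0.334 CPM after both and was not tested. In 9 of the 33 genes, 4 of them called (Plin4, Acvr1c, Gpd1 and Irs1), an antisense gene overlaps part of the exons, with the largest shares in Irs1 (30.9%) and Adrb3 (24.9%). Pnpla3 shares 6.78% of its exons with a gene on its own strand. The libraries were stranded but the strand setting of the counting is not given in the sources used here, so these values may hold reads of the partner gene.

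**Figure D2:**
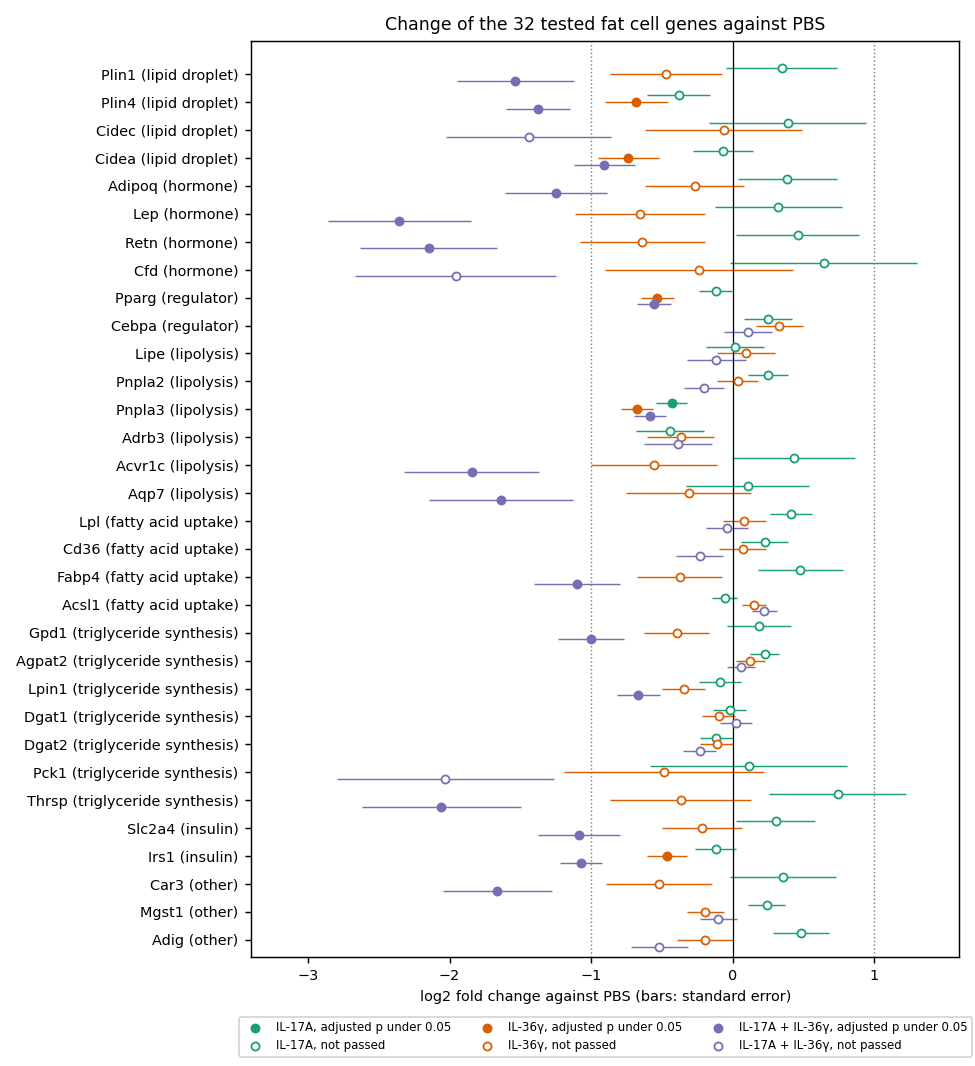
Log2 fold change against PBS (horizontal axis, bars give the standard error) of the 32 tested genes after either cytokine alone and after the joint injection, in the order of their roles. Filled points have an adjusted p-value under 0.05 and dotted lines mark the fold threshold of -1 and 1. The joint injection holds 17 filled points, IL-36γ 5 and IL-17A 1, all of them below 0.

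The second question was whether 1 cytokine alone changed these genes. The comparisons with PBS share the PBS mice, and their values are given side by side. IL-17A alone gave 0 called genes among the 32 by edgeR (1.03% of all genes lowered, 0.897% raised) and 0 by DESeq2 (3.37% of all genes called). At an unadjusted p under 0.05 it gave 1 lower and 3 higher genes (11.9% and 18.9% of all genes). By the adjusted p-value alone 1 gene fell (3.52% of all genes) and 0 rose (7.36%). The median log2 fold change was 0.23, against 0.043 for all genes. When libraries were scaled by size only it was 0.064, against -0.128 for all genes. The gene that fell was Pnpla3. After IL-17A it held 20.2, 23.2 and 24.6 CPM against 27, 32.9 and 31.8 CPM after PBS. The groups did not overlap, and the change was a log2 fold change of -0.43 (SE 0.11, adjusted p = 0.0338). It lost its adjusted p-value without PBS replicate 2 or 3 and without IL-17A replicate 1 or 2.

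The 3 genes with an unadjusted p under 0.05 and a higher level were Lpl, Agpat2 and Adig, with log2 values of 0.41, 0.22 and 0.48 and adjusted p-values of 0.0923, 0.151 and 0.12, and none passed. The 4 hormones had values from 0.32 for Lep to 0.64 for Cfd, all with groups that overlapped. Of the 32 genes, 20 had their highest group mean after IL-17A, among them 11 of the 13 called lowered by the joint injection. The share of all genes with this order was not computed, and 0 of the 32 rose after IL-17A against PBS. For Lep the IL-17A mice spread more than the PBS mice. Its level was at 13.2 ± 5.14 CPM after IL-17A and 10.6 ± 0.611 CPM after PBS (SD, n = 3), and IL-17A replicate 3 was the lowest of its group for 23 of the 32 genes.

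IL-36γ alone also gave 0 called genes by edgeR (1.98% of all genes lowered, 5.01% raised) and 0 by DESeq2 (7.29% of all genes called). By the adjusted p-value alone 5 genes fell (11.2% of all genes) and 0 rose (17.3%). At an unadjusted p under 0.05, 6 genes were lower and 0 higher (18.7% and 23% of all genes). The counts of genes that fell or were lower thus lay near the shares of all genes. The median log2 fold change was -0.33 against -0.015 for all genes. Pnpla3 fell from 30.6 ± 3.13 CPM to 19.1 ± 1.99 CPM (SD, n = 3), a log2 fold change of -0.68 (SE 0.11, adjusted p = 0.00115). Pparg fell with a log2 fold change of -0.53 (SE 0.12, adjusted p = 0.00574), and Cidea with a log2 fold change of -0.74 (SE 0.22, adjusted p = 0.0279). The other genes that fell were Irs1 at -0.46 (adjusted p = 0.0316) and Plin4 at -0.68 (adjusted p = 0.0436). Over 20 alternatives Pnpla3 and Pparg passed in all, Plin4 did not pass in 12, and Cidea and Irs1 did not pass in 5 each, among them the omission of IL-36γ replicate 2 for these 3 genes.

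All 3 IL-36γ mice lay below all PBS mice for 4 genes, namely Lep, Pparg, Pnpla3 and Irs1 (19.2% of all genes), and above them for Acsl1 (22.4%). The hormones did not pass: the log2 fold change was -0.65 for Lep, -0.64 for Retn, -0.27 for Adipoq and -0.24 for Cfd, with adjusted p-values from 0.301 to 0.81. IL-36γ replicate 2 was the lowest mouse of its group for 27 of the 32 genes. Without it the median of the 32 genes was -0.111.

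**Figure D3:**
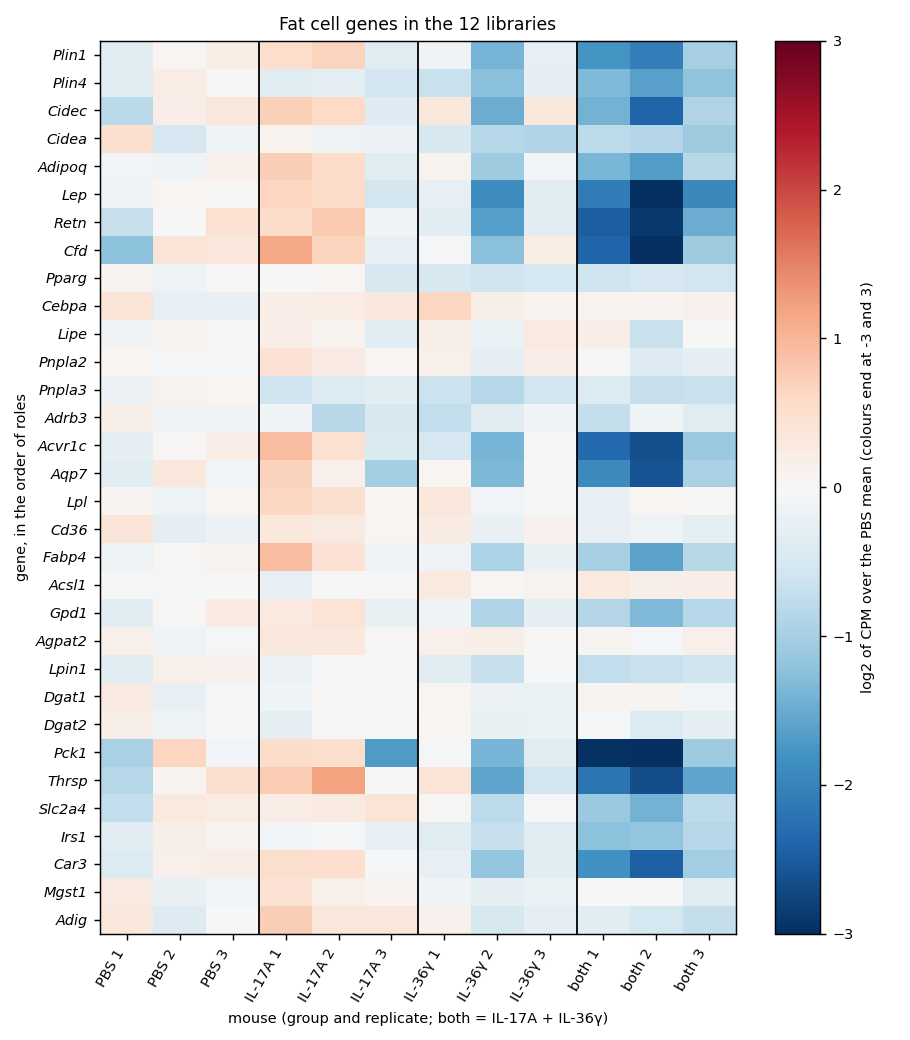
Level of the 32 tested genes in each of the 12 mice, as the log2 of CPM over the mean of the PBS mice, with colours that end at -3 and 3 (blue is lower and red higher than PBS). Columns are mice by group and replicate, rows are genes in the order of roles, and black lines part the groups. Blue cells of the hormones, Plin1, Acvr1c, Aqp7, Pck1, Thrsp and Car3 gather in the joint injection, and IL-36γ replicate 2 is the lowest column of its group in 27 genes.

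The third question was how the joint injection differed from each cytokine alone. Against IL-17A, 14 genes were called lowered (4.12% of all genes) and 0 raised (4.4%). By the adjusted p-value alone 21 genes fell (17.2%) and 1 rose (15%), and for 23 genes the joint mice all lay below the IL-17A mice (25.4%). The median log2 fold change was -0.97, against -0.0043 for all genes. All 4 hormones were called, Lep at -2.67 (adjusted p = 0.00381), Retn at -2.60 (0.00329), Cfd at -2.60 (0.0252) and Adipoq at -1.63 (0.00855). The other called genes were Thrsp at -2.80, Acvr1c at -2.27, Car3 at -2.02, Plin1 at -1.88, Cidec at -1.83, Aqp7 at -1.74, Fabp4 at -1.58, Slc2a4 at -1.39, Gpd1 at -1.19 and Adig at -1.0, with adjusted p-values from 0.00302 to 0.0416. The gene that rose was Acsl1, with a log2 fold change of 0.28 (SE 0.087, adjusted p = 0.0261).

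Against IL-17A, further genes fell without being called, among them Lpl and Pnpla2, whose difference from PBS had not passed. Lpl fell with a log2 fold change of -0.45 (SE 0.15, adjusted p = 0.0381) and Pnpla2 with a log2 fold change of -0.45 (SE 0.14, adjusted p = 0.0298). Irs1 fell with a log2 fold change of -0.95 (SE 0.15, adjusted p = 0.00078) and Plin4 with a log2 fold change of -1.0 (SE 0.23, adjusted p = 0.00795), both just short of the fold threshold. The adjusted p-value of Lpl against IL-17A, like that of Cidec, did not pass in 11 of 20 alternatives, and that of Cfd did not in 6. Pparg, Lpin1 and Cidea fell as well, with log2 values from -0.84 for Cidea to -0.43 for Pparg.

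Against IL-36γ alone, 0 of the 32 genes were called by edgeR (0.0103% of all genes lowered, 0% raised) and 1 by DESeq2 (Lep, where 0.415% of all genes were lowered). By the adjusted p-value alone 0 fell (0.0309%), and 15 were lower and 0 higher at an unadjusted p under 0.05 (9.33% and 5.39% of all genes). Without IL-36γ replicate 2, edgeR also called 1 gene, Lep (0.303% of all genes lowered). The joint mice lay below the IL-36γ mice for Lep, Thrsp and Irs1 (11.3% of all genes). Irs1 had the lowest adjusted p, 0.111, at a log2 value of -0.61 (SE 0.15). Lep was at -1.70 with a 95% confidence interval from -2.84 to -0.56, and Retn at -1.51 (-2.60 to -0.42). The intervals of Cidea (-0.65 to 0.31) and Pparg (-0.28 to 0.23) held 0. The median of the 32 genes was -0.46 and that of all genes 0.0030.

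IL-36γ compared directly with IL-17A gave 0 called genes by edgeR (0.309% of all genes lowered, 1.11% raised) and 0 by DESeq2 (2.22% of all genes called). By the adjusted p-value alone 0 fell (3.53%). At an unadjusted p under 0.05, 10 were lower and 1 higher (12.6% and 12.1% of all genes), and the median log2 value was -0.425. The IL-36γ mice lay below the IL-17A mice for 8 genes (16.1% of all genes), which were Cidea, Retn, Pparg, Slc2a4, Irs1, Car3, Mgst1 and Adig. The lowest adjusted p belonged to Pparg, with -0.41 (SE 0.12, adjusted p = 0.0511), followed by Adig with -0.68 (0.0562) and Mgst1 with -0.43 (0.062).

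The fourth question was whether the 2 cytokines together changed the genes by more than the sum of their separate log2 changes. As a measure of this, the effect of adding IL-17A to PBS was subtracted from the effect of adding IL-17A to IL-36γ. By edgeR 0 of the 32 genes passed (0.567% of all genes lower, 0.206% higher), with 16 lower and 1 higher at an unadjusted p under 0.05 (13.6% and 8.55% of all genes). By DESeq2 3 passed (Retn, Pnpla3 and Thrsp), where 12.4% of all genes did, so that this count is no more than the background. The median interaction of the 32 genes was -0.53 and that of all genes -0.070. Thrsp had the lowest value, -2.43 (SE 0.75, 95% confidence interval -4.09 to -0.78, adjusted p = 0.106). Cfd was at -2.36, Lep at -2.02 and Retn at -1.97, with adjusted p-values of 0.202, 0.129 and 0.13.

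The gene with a positive interaction at an unadjusted p under 0.05 was Pnpla3, at 0.53 (SE 0.16, adjusted p = 0.0955). Its level was lower than in PBS in each of the 3 treated groups, and the joint injection lay between 19.1 and 22.9 CPM, above the lowest mouse of the IL-36γ group. Without PBS replicate 1, 4 genes passed the interaction, namely Cebpa, Pnpla3, Cd36 and Adig, and so did 8.84% of all genes. Leaving out any other library gave 0.

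Genes of the same pathways that lie outside the 33 were counted after the joint injection against PBS. Over all genes in this comparison, 5.82% were called lowered and 7.32% raised, while 20.5% fell and 23.7% rose. The counts of the list of fatty acid uptake and triglyceride synthesis lay near these shares. So did the called counts of the insulin signalling list. Of 22 other genes of fat cells, 10 were called lowered and 0 raised, 17 fell, and the median log2 fold change was -1.08. The largest changes among the called genes were those of Nnat, which encodes neuronatin, at -3.13, Serpina12, the adipokine vaspin, at -1.86, and Arxes1, which PPARγ induces during fat cell formation, at -1.79. Their adjusted p-values were 0.0113, 0.001 and 0.0268. The level of Arxes1 was low, with means of 0.558 CPM after PBS and 0.165 CPM after both. Arxes1 has a near-identical neighbour, Arxes2, so that the counting may split their reads.

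Of 16 other genes of lipolysis and the droplet, 3 were called lowered and 0 raised, while 7 fell and 4 rose, with a median of -0.40. The called ones were Adrb1, the beta-1 adrenergic receptor, at -2.12, G0s2, which inhibits the adipose triglyceride lipase, at -1.54, and Plin5 at -1.35 (adjusted p = 0.00442, 0.000166 and 0.00569). Adrb1 had a low level, with means of 0.381 CPM after PBS and 0.0865 CPM after both, so its change rests on few counts. Among 19 tested genes of fatty acid uptake and triglyceride synthesis, 1 was called lowered and 2 raised, 5 fell and 6 rose, and the median was 0.096. Those raised were Fabp5, the fatty acid binding protein of the epidermis, at 2.13 and glycerol kinase Gk at 1.78, and the lowered one was Mogat1 at -1.10 (adjusted p = 0.0012, 0.000201 and 0.0056). Fabp5 and Gk do not follow Fabp4 and Gpd1, whose values were -1.10 and -1.0.

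Of 20 other regulators of fat cell formation, 3 were called lowered and 0 raised, 11 fell and 3 rose, with a median of -0.58. The called ones were Mlxipl, the carbohydrate sensor ChREBP, at -1.60, Ppargc1a, the coactivator of oxidative metabolism, at -1.23 and Klf15, a factor that turns on GLUT4, at -1.11. Of 12 other genes of insulin signalling, 1 was called lowered and 1 raised, 6 fell and 2 rose, with a median of -0.27. Slc2a1, the glucose transporter GLUT1 of many tissues, was raised at 1.3 from 28.6 ± 2.19 to 70.3 ± 21.4 CPM (SD, n = 3), whereas Grb14, an inhibitor of the insulin receptor, was lowered at -1.23. GLUT1 and GLUT4 thus had log2 values of opposite sign in the same ears.

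Markers of other cell types moved beside the fat cell genes after the joint injection. The shares over all genes for their counts, here and below, are 5.82% called lowered, 7.32% raised, 20.5% that fell and 23.7% that rose. All 10 skeletal muscle genes had a log2 fold change below 0, with a median of -1.68, and 2 of them were called lowered (Actn3 at -2.40 and Myh2 at -1.59). Their summed level was 444.5 to 3446 CPM after PBS, 2104 to 3027 after IL-17A, 1203 to 2228 after IL-36γ and 267 to 1341 CPM after both. With the log2 of this sum as a covariate, an alternative chosen after the data were seen, 5 genes were called lowered against PBS (Plin4, Cidea, Lep, Retn and Car3; 3.37% of all genes lowered) and the median of the 32 genes was -0.69. Of the 17 genes that fell, 11 kept an adjusted p-value under 0.05 under this covariate, and Plin1, Adipoq, Acvr1c, Aqp7, Fabp4 and Thrsp did not (adjusted p from 0.0542 to 0.11). Sizes moved apart from this threshold: Slc2a4, which passed, was at -0.47 under the covariate, and Adipoq, which did not, was at -1.03.

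Other markers moved in both directions, and their part in the values above was not tested. Cartilage genes were lower after the joint injection, with 5 of 7 called, 7 that fell and a median of -1.5, and their sum was 294.9 to 385.3 CPM after PBS and 133.4 to 177.1 CPM after both (Matn1, a marker of this list, did not pass the filter). Of 8 sebaceous gland genes 0 were called, 3 fell and 0 rose (Awat2, Far2 and Mc5r), with a median of -0.44. The sebaceous sum was highest in PBS replicate 1 with 1869 CPM, which was the highest PBS mouse for 13 of the 32 genes and the lowest for 18. Of 8 endothelial genes 0 were called and 4 fell, and the sum was 176.7 to 217 CPM after PBS and 177.5 to 188.3 CPM after both. Among 12 genes of fibroblasts and fat cell precursors, Dlk1, a marker of preadipocytes, and Dpt were called lowered at -1.41 and -1.31, and Dpp4 was called raised at 1.21.

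Immune and epidermal markers were higher in the same ears. All 6 neutrophil genes were called raised, with a sum of 13.0 to 88.3 CPM after PBS and 7596 to 10020 CPM after both. S100a9 and S100a8, with means of 4975 and 3359 CPM after both, made up most of this sum. The paper names macrophages and keratinocytes as further sources of these 2 proteins, so the sum is not a measure of neutrophils alone. Ly6g, of the same list, had a mean of 0.67 CPM after both. Of 8 macrophage genes 4 were called raised and 7 rose, and of 7 keratinocyte genes 4 were called raised and 5 rose, with keratinocyte sums of 11950 to 17370 CPM after PBS and 31570 to 40110 CPM after both. CPM values are shares of a library, and a higher share of such genes lowers the share of others before the TMM scaling. The brown fat markers Ucp1 and Zic1 did not pass the filter on low counts in any comparison, and of the other 2 genes of the brown fat list Cidea fell as described, while Dio2, which activates thyroid hormone, was called raised by IL-36γ alone at 1.43 (adjusted p = 0.0204) and did not pass after both cytokines (0.84, adjusted p = 0.0973).

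**Figure D4:**
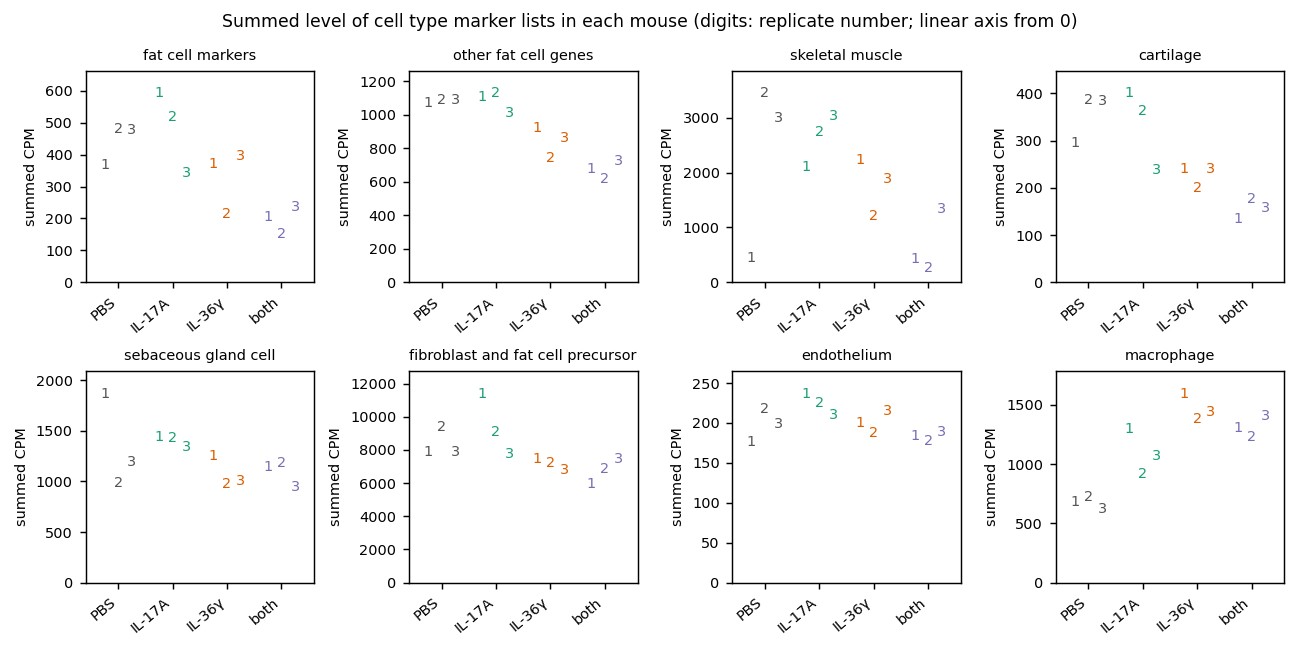
Summed CPM of 8 lists of cell type markers in each mouse on linear axes from 0, by group ("both" is IL-17A + IL-36γ), where each digit is a mouse and gives its replicate number. The fat cell markers span 151 to 236.5 CPM in the joint injection and 366.9 to 480.6 CPM in PBS, and the muscle sum of PBS replicate 1 lies with the joint mice.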

How the data were processed

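RNA-Seq of total ear RNA was available for 12 mice in 4 groups of 3, which were assigned from the sample labels. The authors aligned paired reads to mm10 with STAR 2.5.2b and counted them per gene with featureCounts of Subread 1.5.1. As deposited, the table gives raw counts with a column for each mouse. The authors' tables of comparisons, made with DESeq2 1.30.0, hold fold changes and p-values and were used for gene symbols only.

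edgeR 4.0.16, with limma 3.58.1 and DESeq2 1.42.0, was used in R 4.3.3. Genes with low counts were removed with filterByExpr (minimum count 10), TMM factors scaled the libraries, and 4 group means were fitted and compared by quasi-likelihood F tests (robust fit). Of the genes listed, 16630 had no count. The biological coefficient of variation was 14.2%. Libraries of a group differed by more than sampling noise, with a chi-square per gene from 7.09 to 64, and none was counted as a copy. Gene positions and exon lengths are those of the GENCODE annotation vM21 of GRCm38, and promoter sequences are from RefSeq on GRCm38.p6. Intervals are 95% intervals of the fitted log2 fold change. Counts of 25293468 to 34759293 per library leave counting error as a limit mainly for Aqp7, Adrb3 and Ucp1.

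All 33 genes are named, and of each further list the called genes with the largest absolute change after the joint injection, at most 3. The genes, the lists and the roles were chosen with earlier results of these data known, so that no list is independent evidence of its direction. Other settings tried were the likelihood ratio test of DESeq2, other scalings and filters, a fit of only the groups compared, no fold threshold, a block for the replicate number, the omission of single libraries and, added after the data were seen, the muscle sum as a covariate. In simulated data with 18992 genes, every gene was given the same spread between mice. Of genes with a log2 fold change of -1, 87% passed in the joint injection against PBS, and 99% of those with -2. In this comparison 2 unchanged genes were called. The interaction was passed by 54% and 92%. These shares do not apply to genes with a wider spread, such as Cfd, Pck1 and Thrsp.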

Additional observations from a re-analysis of the deposited data

Results flagged for a closer look

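A pair of genes outside the 33, both from the lists of related fat cell genes, responded differently to IL-17A with and without IL-36γ by the interaction of the quasi-likelihood test of edgeR. Prkar2b, a regulatory subunit of the protein kinase A that drives lipolysis, had a log2 interaction of -0.75 (SE 0.13, adjusted p = 0.0362). Itih5, a secreted protein that fat cells express highly, had one of -0.80 (SE 0.14, adjusted p = 0.0362). Over all genes, 0.567% had a lower and 0.206% a higher interaction at this threshold. Each of the pair passed in 10 of 19 alternatives and did not in 9, among them scaling by library size only (adjusted p = 0.0668 for both) and the omission of 8 single libraries, with adjusted p-values up to 0.136 for Prkar2b and 0.128 for Itih5.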

How the results depend on the processing

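The count of genes called lowered by the joint injection against PBS, 13, was 7 without IL-17A + IL-36γ replicate 2 and 5 with the muscle sum as a covariate (4 of them among the 13), and 7 to 15 over all libraries left out in turn. The share of all genes called lowered was 5.82% in the main fit, 4.95% without this mouse and 3.37% with the covariate. Against IL-17A the count of 14 was 22 with no fold threshold and 4 with the muscle covariate, and 10 to 17 with a library left out. Of all 19408 genes, 1652 were called in the main fit, 6242 with no fold threshold and 894 with the muscle covariate. For the single cytokines against PBS, the count of 0 became 1 for IL-17A and 5 for IL-36γ with no fold threshold and was 0 to 0 for both with a library left out, as for IL-36γ against IL-17A. With no fold threshold, 2112 of all genes passed for IL-17A and 5516 for IL-36γ. For the joint injection against IL-36γ it was 1 with DESeq2 and 1 without IL-36γ replicate 2 (0 to 1 with a library left out). The shares of all genes called there were 0.625% and 0.409%. For the interaction the count was 3 with DESeq2, 3 with the muscle covariate and 4 without PBS replicate 1 (0 to 4). Of all genes, 12.4%, 6.41% and 8.84% passed the interaction in these settings. Apart from the replicate block, which gave 1 for the interaction (5.04% of all genes), all other alternatives stayed within 1.5 times of these counts. For single genes, values were counted only where the main fit or the alternative passed. Among these, 800 kept their side of the threshold, 98 lost and 104 gained it. Of them 0 changed direction, a count that this selection favours. The causes were not tested.

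The replicate numbers were checked for pairing: of 18 pairs of same-numbered libraries, 9 correlated above 0.1 (-0.199 to 0.352), and 8 of 12 libraries correlated best with their own number. These values do not settle whether same-numbered libraries belong together. The main fit held no block for the number. With the replicate number as a block, the counts were 13 against PBS, 13 against IL-17A and 1 (Adig) for the interaction. Over all genes, 13.2%, 8.67% and 5.04% were called in these comparisons with the block. Without it, 0.567% of all genes had a lower and 0.206% a higher interaction. Scaling by library size only moved the median of all genes to -0.128, -0.165 and -0.168 for IL-17A, IL-36γ and both against PBS. Its calls over all genes were 103 raised and 466 lowered, 802 and 694, and 1198 and 1609, where the TMM scaling gave 174 and 199, 972 and 385, and 1421 and 1130. With 3 mice per group, wide spreads between mice limit Cfd, Pck1 and Cidec, and low counts limit Aqp7.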
